A study of Mus musculus with 12 samples.

Results

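The 9 genes described here, P2ry12, P2ry13, Tmem119, Sall1, Siglech, Gpr34, Fcrls, Olfml3 and Selplg, are widely used markers of homeostatic microglia. They were picked by symbol from the 18180 genes measured, with earlier results of these data known. The study sorted EGFR+ cells from 3 mouse glioblastomas (GBMs), called T3, T4 and T5, and measured their RNA in bulk to compare cells with and without surface PDGFRA and cells with and without GAL1 (Galectin-1). Each tumor gave 4 populations, PDGFRA+, PDGFRA-, GAL1+ and GAL1- (the sample labels write PDGFR and Gal1), so that each population had 3 libraries and the series 12. The PDGFRA and GAL1 stains were separate sorts of the same tumors, so a PDGFRA+ cell could also have been in either GAL1 gate.

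All 12 libraries came from 1 mouse model of mixed background. Its strains were C57Bl/6J and 129S4 together with FVBN/J and Balb/cJ by the labels, and the study's methods add SJL. The mice carried among other alleles a Cre-dependent human EGFR transgene, a constitutive loss of Cdkn2a and a Cre-dependent luciferase reporter, and tumors were started by injecting a Cre lentivirus into the brain and were taken at end stage. There was no normal brain or unsorted tumor among the libraries, so the levels below have no reference from microglia outside a tumor. On the gate for CD45, the leukocyte surface marker, the sources differ. The study's main text calls the sorted cells CD45-, whereas the stains it lists for this sort are EGFR with PDGFR or Galectin-1.

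Microglia are the resident macrophages of the brain, and in the healthy brain they keep a gene program that depends on TGF-beta signalling, on CSF1R and on transcription factors that include PU.1 and SALL1. Sensing of nucleotides through P2Y receptors lets their processes follow tissue damage. In inflammation, degeneration and tumors several genes of this program are lowered, while blood-derived macrophages in a tumor express few of them. Of the 9 genes, Sall1 is also expressed by neural progenitors, Siglech by plasmacytoid dendritic cells, and Selplg by leukocytes at large.

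Of the 9 genes, 8 showed a gradient in mean level across the sorted populations, with GAL1+ cells highest, GAL1- cells lowest and both PDGFRA gates between them. For these 8 the step from GAL1- to GAL1+ cells was 9.99-fold (Olfml3) to 69.8-fold (Fcrls). Adding 1 CPM to every value before the log lowered the differences of the genes with fewest reads in GAL1- cells, to 4.15 on the log2 scale for Fcrls, 4.22 for P2ry13 and 3.75 for Gpr34 (from 6.12, 5.62 and 4.71), and P2ry13 was then the largest. The ninth gene, Sall1, differed by 1.58-fold over the same step and had its lowest mean in PDGFRA- cells (4.97 ± 0.30, against 5.06 ± 0.13 in GAL1- cells, SD, n = 3), a difference within the spread. Levels are given as log2 CPM (the log2 of reads scaled to a common library size, on the deposited scale), so that a difference of 1 is a factor of 2, and the levels of different genes are not compared because they were not scaled by length.

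The libraries held 9851175 to 24117541 reads, as recovered from the deposited values, and a level of 3 reads, taken as the floor of detection, lay between -2.99 and -1.44 log2 CPM. The floor covers counting error only. CD45 RNA (Ptprc) was detected in all 12 libraries, at 4.60 ± 0.79 log2 CPM in the GAL1- gate, 6.92 ± 0.70 in PDGFRA+ cells, 7.46 ± 1.06 in PDGFRA- cells and 8.65 ± 0.40 in the GAL1+ gate (mean ± SD, n = 3). Pdgfra was at 8.70 ± 1.38 in PDGFRA- and 10.30 ± 0.45 in PDGFRA+ cells, and Lgals1, which encodes GAL1, was at 6.38 ± 0.39 in GAL1- and 7.66 ± 0.27 in GAL1+ cells. Mouse Egfr was at 8.41 ± 0.68 in GAL1+ and 10.51 ± 0.12 in GAL1- cells. In bulk RNA, a smaller number of cells of one type and less RNA per cell cannot be told apart.

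Promoter sequences of 6 of the 9 genes were found in RefSeq (GRCm38.p6), and those of P2ry13, Siglech and Sall1 are shown because the first 2 follow the gradient and the third barely does. Each runs 5′ to 3′ on the strand of its gene, from 250 to 11 bases before the start, and capitals mark the core letters of sites for PU.1 (GAGGAA or its complement TTCCTC) and RUNX factors (TGTGGT or its complement ACCACA).
P2ry13 (chr3:59210893-59211132, minus strand): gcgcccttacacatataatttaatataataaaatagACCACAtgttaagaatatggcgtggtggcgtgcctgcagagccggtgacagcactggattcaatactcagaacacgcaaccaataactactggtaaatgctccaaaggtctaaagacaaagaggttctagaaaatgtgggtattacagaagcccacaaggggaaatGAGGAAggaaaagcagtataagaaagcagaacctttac
Siglech (chr7:55767934-55768173, plus strand): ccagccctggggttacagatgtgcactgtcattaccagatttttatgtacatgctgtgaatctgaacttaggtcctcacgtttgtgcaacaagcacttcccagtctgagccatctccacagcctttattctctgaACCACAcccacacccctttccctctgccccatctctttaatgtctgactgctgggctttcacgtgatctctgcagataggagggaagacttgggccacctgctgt
Sall1 (chr8:89044173-89044412, minus strand): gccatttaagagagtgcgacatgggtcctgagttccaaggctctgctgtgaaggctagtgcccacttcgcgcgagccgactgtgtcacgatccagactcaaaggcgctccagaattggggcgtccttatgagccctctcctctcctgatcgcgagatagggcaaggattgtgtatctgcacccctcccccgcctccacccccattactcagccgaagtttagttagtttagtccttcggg
Within the 250 bases before the start, P2ry13 held a PU.1 core that begins 48 bases before the start and a RUNX core at 214 bases, and Siglech held a RUNX core at 115 bases. Neither core was found in the Sall1 window. Among the 6 genes with a sequence, 2 held the PU.1 core (P2ry13 and Fcrls) and 3 the RUNX core (P2ry13, Fcrls and Siglech). P2ry12 and Olfml3, which also follow the gradient, held neither core. The 6 genes had 8 windows, of which 2 held the PU.1 core and 3 the RUNX core. Of the 32851 promoter windows of all genes, 23.3% and 14.0% did. Such matches describe the letters of these windows only.

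The purinergic receptors come first. P2ry12 encodes the ADP receptor that steers microglial processes to damage. It was at 1.17, 2.35 and 1.22 log2 CPM in the GAL1- cells of T3, T4 and T5, at 4.10, 3.49 and 4.83 in PDGFRA- cells, at 3.61, 4.58 and 4.32 in PDGFRA+ cells and at 5.68, 6.01 and 6.18 in GAL1+ cells. The GAL1- and the GAL1+ libraries each stood clear of all others, and the PDGFRA gates overlapped. GAL1+ cells had 20.8-fold more P2ry12 RNA than GAL1- cells (log2 difference 4.38 ± 0.37, SE, adjusted p = 3.988e-05, limma with tumor as a block).

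P2ry13 encodes a related ADP receptor and is the next protein-coding gene to P2ry12 on chromosome 3. Its values were -1.55, -0.15 and -0.50 log2 CPM in GAL1- cells, 2.81, 1.04 and 4.21 in PDGFRA- cells, 2.70, 4.08 and 2.98 in PDGFRA+ cells and 4.73, 5.17 and 4.75 in GAL1+ cells. The GAL1- libraries rested on only 9 to 21 reads, and the PDGFRA- library of T4 was the lowest of the other 9. The difference between GAL1+ and GAL1- cells was 49.1-fold (log2 5.62 ± 0.68, adjusted p = 0.0001326).

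Gpr34, a receptor for lysophosphatidylserine, is related to the P2Y family. It was at -0.31, 1.11 and -0.58 log2 CPM in GAL1- cells, at 3.53, 1.78 and 3.07 in PDGFRA- cells, at 2.93, 3.94 and 2.0 in PDGFRA+ cells and at 5.26, 5.30 and 3.77 in GAL1+ cells. The GAL1+ library of T5 lay below the PDGFRA+ library of T4, so those populations overlapped, whereas the 3 GAL1- libraries were the lowest of all. GAL1+ cells had 26.1-fold more than GAL1- cells (log2 4.71 ± 0.58, adjusted p = 0.0001445).

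Among the other surface proteins, Tmem119 encodes a transmembrane protein used to tell microglia from other macrophages. It was at 1.52, 2.78 and 1.72 log2 CPM in GAL1- cells, at 4.62, 4.56 and 6.35 in PDGFRA- cells, at 3.98, 5.73 and 5.36 in PDGFRA+ cells and at 6.15, 6.81 and 6.61 in GAL1+ cells. The PDGFRA- library of T5 reached the GAL1+ range, and the GAL1- libraries were again the lowest. The difference between GAL1+ and GAL1- cells was 22.9-fold (log2 4.52 ± 0.44, adjusted p = 5.381e-05).

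Siglech encodes a sialic-acid-binding lectin. It was at 0.93, 2.55 and 1.86 log2 CPM in GAL1- cells, at 3.62, 2.41 and 4.34 in PDGFRA- cells, at 3.06, 5.28 and 4.62 in PDGFRA+ cells and at 4.74, 6.31 and 6.04 in GAL1+ cells. In T4 the PDGFRA- library was below the GAL1- library, the only place where one of the 8 graded genes was lower outside the GAL1- gate of the same tumor. GAL1+ cells had 15.1-fold more Siglech RNA than GAL1- cells (log2 3.91 ± 0.54, adjusted p = 0.0002631). Of 9 plasmacytoid dendritic cell genes, Ccr9, Klk1 and Ly6d were not in the table. Of the 6 measured, 4 were called higher in GAL1+ than in GAL1- cells, where 28.9% of all genes were. Of the 6, 1 was called lower and 1 was not called, and the median log2 difference was 1.53. Named after their values were seen, those higher were Cox6a2 (18.3-fold, on 4 to 17 reads in GAL1- cells), Runx2 (3.65-fold), Bst2 (3.24-fold) and Irf8 (2.57-fold), and Tcf4 was 1.98-fold lower. The summed level of the 6 was 529 to 574 CPM in GAL1+ and 578 to 693 CPM in GAL1- cells, most of it Tcf4 in GAL1- cells (477 to 574 CPM). The part of such cells in the Siglech difference was not tested.

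Fcrls, an Fc receptor-like scavenger receptor of mouse microglia, was the gene with the widest range. It was at -0.51, -0.72 and -3.31 log2 CPM in GAL1- cells, at 2.78, 2.29 and 3.42 in PDGFRA- cells, at 2.49, 4.31 and 2.38 in PDGFRA+ cells and at 5.01, 5.31 and 3.51 in GAL1+ cells. The GAL1- values stood for 19, 14 and 2 reads, the last of them under the floor of 3 reads, so its lower end was set by counting. The fitted difference between GAL1+ and GAL1- cells was 69.8-fold (log2 6.12 ± 0.67, adjusted p = 8.165e-05).

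Selplg encodes the P-selectin ligand PSGL-1 and lies next to Tmem119 on chromosome 5. It was at 1.85, 3.30 and 3.03 log2 CPM in GAL1- cells, at 5.21, 4.14 and 6.27 in PDGFRA- cells, at 4.16, 5.98 and 5.61 in PDGFRA+ cells and at 6.37, 6.86 and 6.85 in GAL1+ cells. The GAL1- and the GAL1+ libraries did not overlap any other population, although the PDGFRA- library of T5 came close to the lowest GAL1+ library. GAL1+ cells had 15.6-fold more than GAL1- cells (log2 3.97 ± 0.48, adjusted p = 0.0001349).

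Olfml3 encodes a secreted olfactomedin-like protein. It was at 2.82, 4.03 and 4.25 log2 CPM in GAL1- cells, at 5.21, 5.60 and 6.21 in PDGFRA- cells, at 4.70, 6.14 and 5.98 in PDGFRA+ cells and at 6.72, 7.35 and 7.0 in GAL1+ cells. All 3 GAL1- libraries were below, and all 3 GAL1+ libraries above, every PDGFRA+ and PDGFRA- library. Its difference between GAL1+ and GAL1- cells was 9.99-fold, with the smallest error of the 8 graded genes (log2 3.32 ± 0.24, adjusted p = 3.935e-05).

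**Figure D1:**
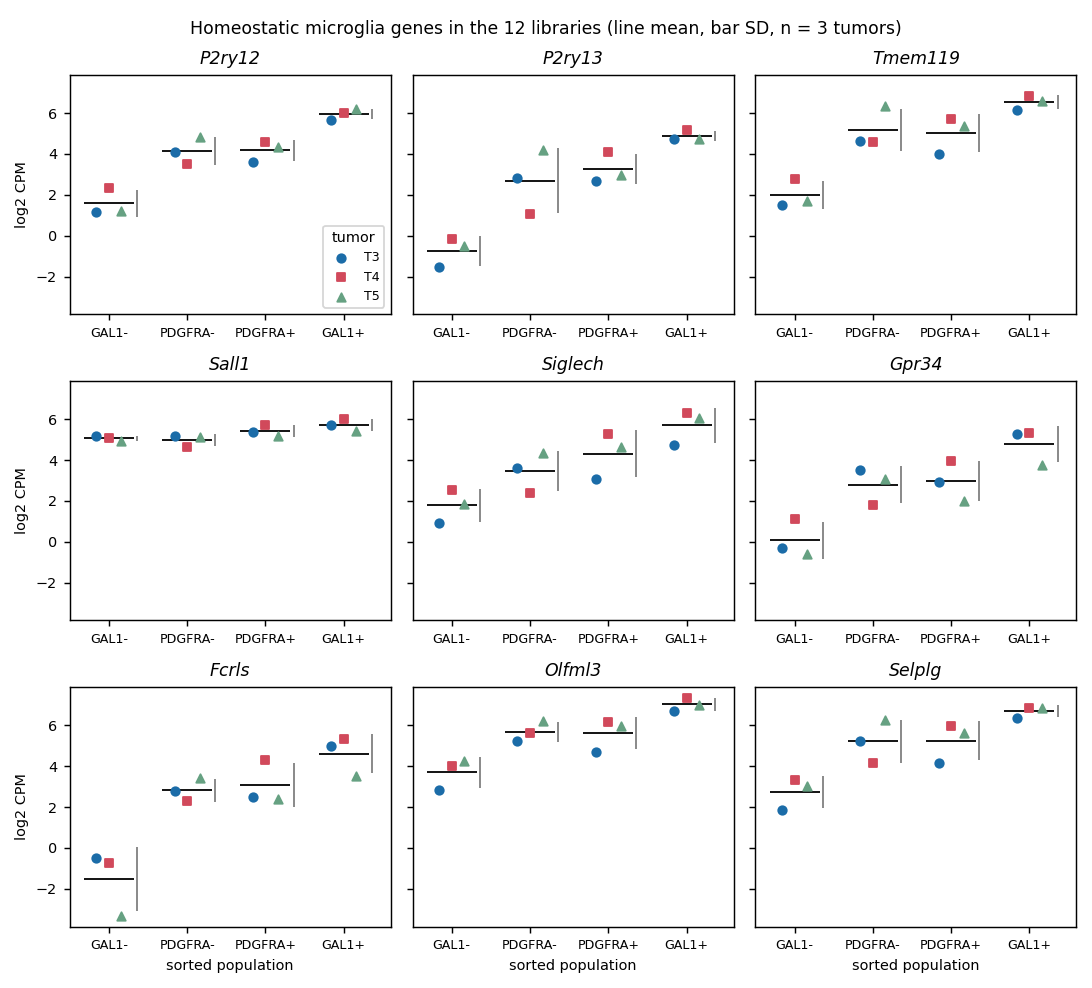
Level of each of the 9 genes (y axis, log2 CPM) in the 4 sorted populations (x axis), with 1 point per tumor (T3 circles, T4 squares, T5 triangles), a line at the mean and a bar of 1 SD to its right. For every gene the GAL1+ points lie above the GAL1- points, and Sall1 spans 1.37 log2 units over the 12 libraries where the others span 4.53 to 8.62.

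The transcription factor Sall1, which is required for microglial identity, behaved differently. It was at 5.17, 5.08 and 4.92 log2 CPM in GAL1- cells, at 5.16, 4.63 and 5.12 in PDGFRA- cells, at 5.37, 5.72 and 5.19 in PDGFRA+ cells and at 5.72, 6.00 and 5.43 in GAL1+ cells. The GAL1+ libraries were all above the GAL1- libraries, but the GAL1- level was well above detection (746.1 to 1004 reads) and overlapped the PDGFRA- level. The difference between GAL1+ and GAL1- cells was 1.58-fold (log2 0.66 ± 0.19, 95% interval 0.22 to 1.09, adjusted p = 0.01596), and without T3 the adjusted p was 0.08477. The interval of every other member lay higher, the lowest of their bounds being 2.69 (Siglech).

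Of the related Sall genes, which neural progenitors express, Sall4 was not in the table. Sall2 was at 5.71, 5.24 and 5.30 log2 CPM in GAL1- cells and at 4.01, 2.77 and 2.68 in GAL1+ cells, a 4.82-fold lower level in GAL1+ cells (log2 -2.27 ± 0.28, adjusted p = 0.0001386). Sall3 was at 7.30, 6.86 and 7.13 in GAL1- cells and at 6.52, 6.41 and 6.53 in GAL1+ cells, 1.53-fold lower (log2 -0.61 ± 0.12, adjusted p = 0.002362). Both therefore ran against Sall1 in this comparison. The list of neural progenitor genes, which includes Sall2 and Sall3, was lower in GAL1+ cells. Of its 11 measured genes, 9 were called lower and 0 higher, where 5324 of all 18180 genes were called lower. The summed level of neural progenitor genes was 2680 to 3080 CPM in GAL1- and 1700 to 2460 CPM in GAL1+ cells. Vim made the largest contribution to this sum, at 10.47 ± 0.03 log2 CPM in GAL1- and 10.53 ± 0.23 in GAL1+ cells (SD, n = 3). It was not called (log2 0.06, adjusted p = 0.7975 in limma). The part of neural progenitors in the Sall1 level was not tested.

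**Figure D2:**
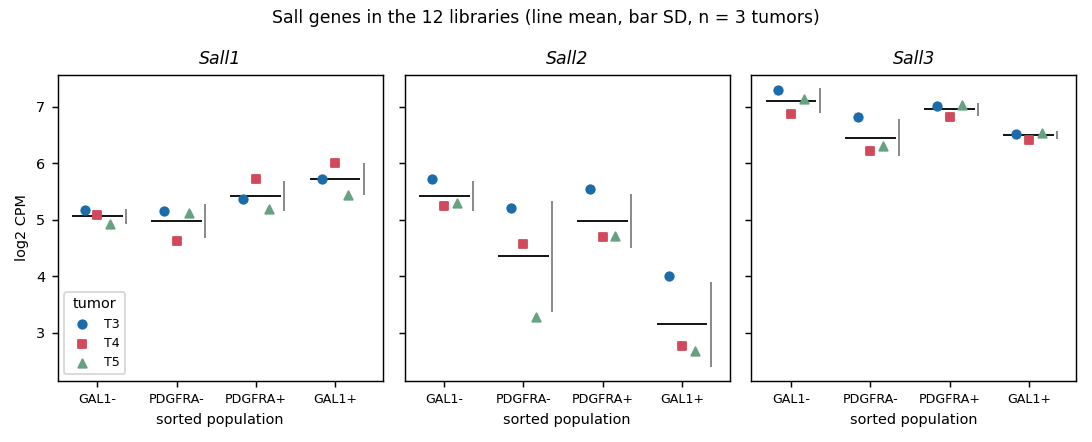
Levels of Sall1, Sall2 and Sall3 (y axis, log2 CPM) in the 4 sorted populations (x axis), with 1 point per tumor, a line at the mean and a bar of 1 SD. Sall1 has its highest mean in GAL1+ cells (5.72), where Sall2 has its lowest (3.15).

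Over all 9 genes, the comparison of GAL1+ with GAL1- cells called 9 higher at an adjusted p under 0.05, in a comparison that called 28.9% of all genes higher. The 9 genes had a median log2 difference of 4.38 and all 18180 genes one of -0.03. In T3, T4 and T5 alike each member was higher in GAL1+ cells, and 78.2% of all genes kept the same direction in the 3 tumors. For all 9 members the libraries of the populations did not overlap, as was true of 60.6% of all genes. Other leukocyte genes moved with them, as did all 8 endothelial genes, called higher with a median of 2.69. Of 8 T and NK cell genes measured, 1 was called higher, 1 lower and 6 were not called. All 12 pan-leukocyte genes were called higher (median 4.44), among them Ptprc by 16.5-fold, and so were 13 of 13 genes of tumor and border macrophages (median 5.67). Their summed levels were 95.5 to 247 CPM and 43.7 to 124 CPM in GAL1- cells, and 2860 to 3960 CPM and 2910 to 3940 CPM in GAL1+ cells, with no gene of either list at or under the floor in all 3 libraries of a population. The part of leukocyte number in the members' difference was not tested.

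PDGFRA+ cells lay between the GAL1 gates. Against GAL1- cells, 8 members were called higher, where 8.26% of all genes were, with a median over the 9 of 2.60 on the log2 scale. The differences ran from 3.75-fold for Olfml3 (adjusted p = 0.001993) to 23.8-fold for Fcrls (adjusted p = 0.003133), and Sall1 was the member that did not pass (log2 0.37, 95% interval -0.07 to 0.80, adjusted p = 0.396). With 1 CPM added before the log, the log2 difference of Fcrls was 2.72, that of P2ry13 2.70 and that of Gpr34 2.07, from 4.58, 3.99 and 2.89. All 9 members were higher in PDGFRA+ cells in each tumor, and 54.1% of all genes kept the same direction in the 3 tumors. The members' libraries did not overlap, as was true in either direction of 24.6% of all genes. The calls needed T3, since without it 0 members and 0 genes of the whole table passed, and without T5 5 members did. Fits without a tumor or a PDGFRA- library, 5 in number, called 0 to 1920 of all genes.

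Against GAL1+ cells, 5 members were called lower in PDGFRA+ cells, where 17.0% of all genes were. These were Gpr34 (log2 -1.82, adjusted p = 0.03515), P2ry12 (-1.78, adjusted p = 0.00648), Tmem119 (-1.50, adjusted p = 0.02534), Selplg (-1.44, adjusted p = 0.04152) and Olfml3 (-1.41, adjusted p = 0.002726). P2ry13, Fcrls and Siglech had differences of like size (-1.63, -1.55 and -1.37) with adjusted p of 0.08617, 0.09567 and 0.07259, and Sall1 was at -0.29 (adjusted p = 0.2623). All 9 were lower in PDGFRA+ cells in every tumor, and 69.4% of all genes kept the same direction in the 3 tumors. The libraries of 5 members stood apart without overlap, beside 46.0% of all genes. The count moved with the libraries used, being 1 without T3, 3 without T5 and 8 without the PDGFRA- library of T4, which enters this contrast only through the shared spread and the tumor term. It was also 1 when the tumor block was dropped. Of all genes, 2110 to 7887 were called in either direction over the 5 fits without a tumor or a PDGFRA- library.

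**Figure D3:**
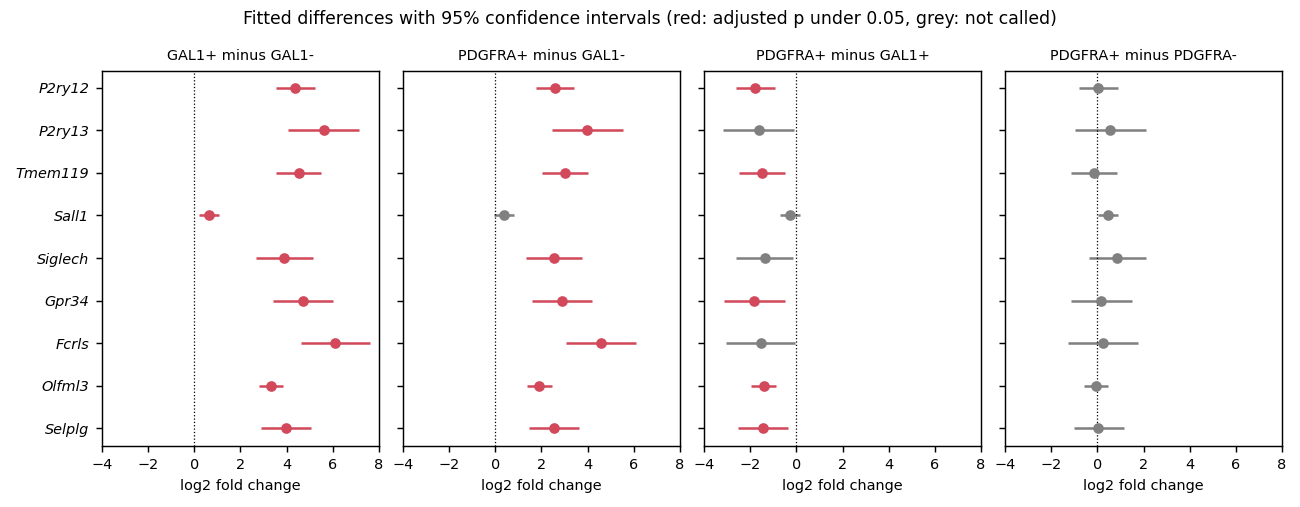
Fitted log2 fold change (x axis) of each member (y axis) in 4 comparisons, with 95% confidence intervals, in red where the adjusted p was under 0.05 and in grey where it was not. The intervals lie to the right of 0 for all 9 genes between GAL1+ and GAL1- cells, and 0 members are red between PDGFRA+ and PDGFRA- cells.

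PDGFRA- cells were also intermediate, with a wider spread. Against GAL1- cells 7 members were called higher, where 16.2% of all genes were. The median difference was 2.57, and the largest were those of Fcrls (20.3-fold, adjusted p = 0.00223) and P2ry13 (10.7-fold, adjusted p = 0.007509). With 1 CPM added before the log they were 2.50 and 2.26 on the log2 scale, from 4.34 and 3.42, Gpr34 was at 1.93, from 2.72, and Tmem119 was then the largest at 2.88. Siglech was 3.20-fold higher with an adjusted p of 0.05217, and Sall1 differed by -0.09 on the log2 scale (95% interval -0.52 to 0.35). In T4 the median of the members' differences was 1.14, in T3 3.10 and in T5 3.62. Without T3 4 members were called, and without T5 3 were. Over the 5 fits without a tumor or a PDGFRA- library, 920 to 6021 of all genes were called in either direction.

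Against GAL1+ cells, 6 members were called lower in PDGFRA- cells, where 6.91% of all genes were. The 6 were Siglech (log2 -2.24, adjusted p = 0.02374), P2ry13 (-2.19, adjusted p = 0.04991), Gpr34 (-1.99, adjusted p = 0.04156), P2ry12 (-1.81, adjusted p = 0.01403), Olfml3 (-1.35, adjusted p = 0.009473) and Sall1 (-0.74, adjusted p = 0.02961). Fcrls, Selplg and Tmem119 were at -1.78, -1.49 and -1.35 and did not pass (adjusted p = 0.08752, 0.05728 and 0.05774). All 9 members were lower in each tumor, and 52.4% of all genes kept the same direction in the 3 tumors. For 8 members the libraries did not overlap, beside 18.7% of all genes. These calls depended on single tumors and libraries. Of the members, 0 passed without T3, 0 without T4, 3 without the PDGFRA- library of T4 and 1 without the tumor block. The calls over all genes moved too, from 0 to 5837 over the 5 fits without a tumor or a PDGFRA- library.

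Between PDGFRA+ and PDGFRA- cells, 0 of the 9 members and 0 of all 18180 genes (0%) passed at an adjusted p under 0.05 in limma, and the voom weights called 0 members too. At an unadjusted p under 0.05, 1 member was among the 2137 genes (11.8%) that reached it, and this was Sall1 (log2 0.45, unadjusted p = 0.04346 and adjusted p = 0.4161 in limma). The members' log2 differences ran from -0.15 (Tmem119) to 0.86 (Siglech), with 95% intervals as wide as -0.97 to 2.10 (P2ry13) and as narrow as 0.02 to 0.89 (Sall1), so that differences of 2-fold or more remained possible for P2ry13, Siglech, Gpr34, Fcrls, Tmem119 and Selplg.

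The mean hid a split between the tumors. In T4 all 9 members were higher in PDGFRA+ cells, by a median of 1.84 on the log2 scale, with 3.04 for P2ry13, 2.87 for Siglech, 2.17 for Gpr34 and 2.02 for Fcrls. In T3 the median was -0.50 and in T5 -0.66, and there 8 and 7 members were lower in PDGFRA+ cells. The exceptions were Sall1 in both tumors (0.20 and 0.07) and Siglech in T5 (0.28). T4 held the highest of the 3 PDGFRA+ values for all 9 genes and the lowest of the 3 PDGFRA- values for 8, the exception being Olfml3. Ptprc showed the same split, at -0.97, 0.68 and -1.35 in T3, T4 and T5. The summed pan-leukocyte level of the PDGFRA- cells was 751 CPM in T4, against 1230 in T3 and 3250 in T5, and that library was also the shallowest, with 9851175 reads. Whether either has a part in the split was not tested.

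**Figure D4:**
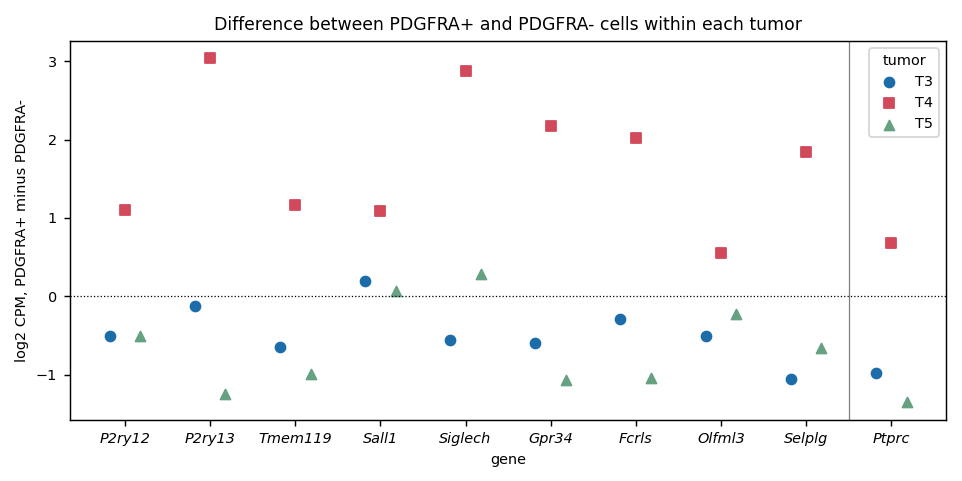
Difference in level between the PDGFRA+ and the PDGFRA- library of the same tumor (y axis, log2 CPM) for each member and for Ptprc (x axis), with 1 point per tumor. The T4 squares lie above 0 for all 9 members and Ptprc, and most T3 and T5 points lie below.

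To set the members beside the leukocyte RNA in each library, the mean level of the 8 graded genes was taken relative to the mean of the 12 pan-leukocyte genes. This difference was -2.23 ± 0.44 in the GAL1- gate, -2.56 ± 0.28 in PDGFRA- cells, -1.98 ± 0.38 in PDGFRA+ cells and -1.99 ± 0.37 in the GAL1+ gate (mean ± SD, n = 3), whereas the mean level of the 8 genes itself ran from 1.20 in GAL1- to 5.77 in GAL1+ cells. Several single genes differed more between GAL1- and GAL1+ cells than their average did. P2ry12 (-1.85 ± 0.54 and -1.80 ± 0.05) and Tmem119 (-1.42 ± 0.47 and -1.23 ± 0.23) differed less. Relative to the pan-leukocyte genes, P2ry13 was at -4.16 ± 0.03 in GAL1- and -2.88 ± 0.31 in GAL1+ cells, and Fcrls at -4.94 ± 1.94 and -3.15 ± 1.13. The GAL1- values of P2ry13 and Fcrls rested on only 9 to 21 and 2 to 19 reads. Olfml3 ran the other way, from 0.27 ± 0.26 in GAL1- to -0.74 ± 0.28 in GAL1+ cells, and Siglech was lowest in PDGFRA- cells (-3.10 ± 0.33, against -1.65 ± 0.21 in GAL1- cells). Within T3, T4 and T5 alike, the mean of the 8 genes relative to the pan-leukocyte genes was lower in PDGFRA- than in PDGFRA+ cells, at -2.37 against -1.96 in T3, -2.43 against -1.61 in T4 and -2.89 against -2.37 in T5. The direction was thus shared by the tumors with this reference, although the members' own levels had split. It was not shared relative to 23 further homeostatic genes, described below. There PDGFRA- cells were at -1.98, -2.41 and -2.12, and PDGFRA+ cells at -2.03, -1.76 and -2.28, in T3, T4 and T5. Relative to disease-associated microglia genes, T5 alone went the other way (-3.02 in PDGFRA- and -3.29 in PDGFRA+ cells).

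Relative to the 13 macrophage genes, which include Mrc1, Ms4a7, Ccr2 and Tgfbi, the same 8 genes were at 0.34 ± 0.76 in the GAL1- gate, -1.18 ± 0.05 in PDGFRA- cells, -0.46 ± 0.48 in PDGFRA+ cells and -0.63 ± 0.43 in the GAL1+ gate. PDGFRA- cells had the lowest value in each tumor (-1.22, -1.13 and -1.21) and GAL1- cells the highest (0.75, 0.80 and -0.54). The GAL1- values rest on macrophage genes that summed to 43.7 to 124 CPM. Relative to 12 disease-associated microglia genes, such as Apoe, Spp1 and Clec7a, the 8 genes were at -3.80 ± 0.67 in the GAL1- gate, -3.09 ± 0.21 in PDGFRA- cells, -2.85 ± 0.44 in PDGFRA+ cells and -2.41 ± 0.29 in the GAL1+ gate. The 12 genes did not move alike between GAL1- and GAL1+ cells. Apoe, Spp1 and Clec7a were higher in GAL1+ cells by 5.18, 4.70 and 4.05 on the log2 scale. Cd63 was higher by 1.42, and Gpnmb, Fabp5 and Cd9, at 1.82, 0.14 and 0.09, were not called. The values relative to this list thus depend on which of its genes are counted. No test was run on the levels relative to any of these lists, since the members were chosen as a group.

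Most further genes of the homeostatic program were also higher in GAL1+ than in GAL1- cells. Of 25 listed, 23 were in the table (Slc2a5 and Upk1b were not). Between GAL1+ and GAL1- cells 21 were called higher, where 28.9% of all genes were, 1 lower and 1 was not called. Their median was 4.43, and that of the 13 macrophage genes was 5.67. Those with the largest differences are named first. Trem2, a lipid receptor that signals in microglia, was higher by 6.23 on the log2 scale (adjusted p = 0.0001132), the complement gene C1qa by 5.90 (adjusted p = 4.549e-05), the fractalkine receptor Cx3cr1 by 5.44 (adjusted p = 0.0001326), and Csf1r, the receptor that microglia need to survive, by 5.40 (adjusted p = 4.853e-05). Cx3cr1 was at 1.89, 4.12 and 2.60 log2 CPM in GAL1- cells and at 8.47, 8.92 and 7.55 in GAL1+ cells, without overlap. The TGF-beta receptor Tgfbr1 was higher by 2.82 (adjusted p = 6.962e-05). The smallest increases among those called were of Sparc (1.13), Golm1 (1.52) and Cst3 (2.37).

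The adhesion receptor Adgrg1, which neural progenitors also express, was the gene called lower (-1.34, adjusted p = 0.001676), and Pros1 did not pass (0.51, adjusted p = 0.06408). Against GAL1+ cells, 16 of the 23 were called lower in PDGFRA+ cells, where 17.0% of all genes were. Adgrg1 was called higher there (1.11, adjusted p = 0.00986). In PDGFRA- cells 14 of the 23 were called lower, where 6.91% of all genes were. Against GAL1- cells, 20 of the 23 were called higher in PDGFRA+ and 19 in PDGFRA- cells, where 8.26% and 16.2% of all genes were. Between PDGFRA+ and PDGFRA- cells 0 of the 23 passed, and 0 reached an unadjusted p under 0.05.

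The members' profiles over the 12 libraries were compared with each other and with 13230 genes by the root mean square (RMS) difference of the centred log2 CPM, as a description. The libraries share tumors, so the points are not independent. Among the 8 graded genes the 28 pairs lay 0.37 to 1.55 log2 units apart (Pearson r 0.82 to 0.98). The closest were P2ry12 and Tmem119, at 0.37. Pairs with Sall1 lay 1.13 to 2.22 apart (r 0.56 to 0.756), and the member nearest to Sall1, Olfml3, ranked 11322 of 13230 genes. Selplg was nearer to Ptprc (0.29) than to any other member, its nearest being P2ry12 at 0.38.

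The genes nearest to each member were mostly not members. Those of P2ry12 were Ticam2, Cd83 and Rac2 (0.22, 0.25 and 0.26), those of Tmem119 were Naip6, F11r and Snx20 (0.16, 0.16 and 0.19), and those of Selplg were Lpcat2, Ptafr and Lat2 (0.19, 0.20 and 0.21). P2ry13 lay nearest to Ly86, Gal3st4 and Rnase4 (0.31, 0.34 and 0.38), and Gpr34 to Il12b, Gpr84 and Apold1 (0.42, 0.42 and 0.50). Siglech lay nearest to Npnt, Selplg and St14 (0.32, 0.44 and 0.46), the only member with another member among its nearest 3. Fcrls had no close neighbour, with Cysltr1, Cxcl13 and Ccl12 at 0.65, 0.65 and 0.70. Olfml3 lay nearest to Kctd12, Axl and Ehbp1l1 (0.16, 0.22 and 0.23), and Sall1 to Camk1, Prr5l and Entpd6 (0.16, 0.18 and 0.18).

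In the GRCm38 annotation (GENCODE), 3 members lie within or across genes on the opposite strand. P2ry12 and P2ry13 lie in Med12l, with shared exon positions for P2ry12 only, and Gpr34 lies in Cask. The strand setting of the counting is not given in the sources used here. How reads at the exon positions shared by P2ry12 and Med12l were counted is therefore not known. Both host genes ran against the members, since Med12l was 3.45-fold lower in GAL1+ than in GAL1- cells (log2 -1.79, adjusted p = 5.511e-05) and Cask 2.73-fold lower (log2 -1.45, adjusted p = 0.0002345).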

How the data were processed

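Bulk RNA-seq values of 12 libraries, 4 sorted populations from each of 3 tumors, were used. One item of the mouse genotype is not reported here. Per the labels and the study's methods, the authors made libraries with a stranded total RNA kit, trimmed reads with fastp, aligned them with STAR to mm39, counted exonic reads with featureCounts (multi-mapping reads as fractions), kept genes above a CPM threshold, and applied TMM and voom. What they deposited is a log2 CPM per gene and library, with an offset of 0.5 reads. The lowest value of a library was taken as 0 reads to recover reads, which came out whole (within 0.02 reads) for 41.8% to 59.4% of genes. This bears on the floor of 3 reads and on 1 alternative, not on the main test.

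Populations were compared with limma 3.58.1 in R 4.3.3 on the deposited log2 values of all 12 libraries, with the tumor as a block, a mean-dependent prior variance and Benjamini-Hochberg adjustment over 18180 genes. A gene was called at an adjusted p under 0.05. The fit was tested on simulated data. The pairing by tumor comes from the sample labels, and same-tumor libraries deviated together (mean r 0.486 over 18 pairs, lowest 0.14). The labels do not say whether each tumor is a separate animal. The p-values rest on the spread that remained after the tumor term, pooled over the populations, and cover these tumors only.

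The members and the gene lists were chosen with earlier results of these data known. Named genes were the 9 members, the sort markers, any of the listed homeostatic genes, the 3 nearest genes of each member (mean of at least 1 log2 CPM, no predicted genes), the Sall genes and genes overlapping a member. Alternatives changed the block, libraries, prior, weights, filter, pseudocount and scaling. The fits without a single PDGFRA- library were added after seeing the data. Lists of T and NK cell, neutrophil, endothelial and oligodendrocyte precursor genes were also counted. Between GAL1+ and GAL1- cells 1 of 8, 3 of 5, 8 of 8 and 0 of 8 measured were called higher. Of disease-associated microglia genes 9 of 12 were, beside 28.9% of all genes. Figures were drawn with matplotlib 3.10.9.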

Additional observations from a re-analysis of the deposited data

How the results depend on the processing

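The 54 member differences (9 genes in 6 comparisons) were recomputed under 14 alternatives. Of the 756 values, 643 kept their direction and their side of the threshold, 61 lost a call, 30 gained one and 22 turned direction. With no replicate block (tumor term dropped), the calls fell to 3154 genes and 1 member for PDGFRA+ against GAL1+, 725 genes and 1 member for PDGFRA- against GAL1+, 612 genes for PDGFRA+ against GAL1- and 1444 genes for PDGFRA- against GAL1-. With only the 2 populations compared, they were 8 members, 1893 genes, 3386 genes and 1328 genes in the same order. Without the prior trend 3 members, and with voom weights 8, were called for PDGFRA+ against GAL1+.

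Leaving out a tumor or one PDGFRA- library (5 fits) gave 0 to 5 genes for PDGFRA+ against PDGFRA-, 2110 to 7887 genes and 1 to 8 members for PDGFRA+ against GAL1+, 0 to 5837 genes and 0 to 9 members for PDGFRA- against GAL1+, 0 to 1920 genes and 0 to 8 members for PDGFRA+ against GAL1-, and 920 to 6021 genes and 3 to 8 members for PDGFRA- against GAL1-. The same fits gave log2 differences between PDGFRA+ and PDGFRA- cells of -0.50 to 0.37 for P2ry12, -0.68 to 1.46 for P2ry13, -0.81 to 0.41 for Tmem119, -0.14 to 1.57 for Siglech, -0.83 to 0.79 for Gpr34, -0.66 to 1.12 for Fcrls, -0.37 to 0.16 for Olfml3 and -0.85 to 0.59 for Selplg. For Sall1 between PDGFRA- and GAL1- cells they gave -0.27 to 0.19. With voom weights P2ry12 and Selplg were both at -0.01 between PDGFRA+ and PDGFRA- cells. The cause of these changes was not tested, and fits without a tumor rest on fewer libraries. Between GAL1+ and GAL1- cells the 9 members were higher under all 14 alternatives, and the one call lost was that of Sall1 without T3. Depth limits the low end of Fcrls and P2ry13 in GAL1- cells, where 2 to 21 reads were found.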
